A study of Mus musculus with 12 samples.

Results

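Gene expression was compared between haematopoietic stem cells (HSCs) with and without deletion of Runx1, within the fraction of mouse bone marrow HSCs sorted as negative for the surface protein CD41 (CD41neg). The comparison uses 6 of the 12 libraries of the study, 3 labelled KO (1, 2 and 3) and 3 labelled WT (2, 3 and 4), over all genes counted. The other 6 libraries are CD41-positive (CD41pos) HSCs of the same genotypes and entered the fit to estimate the spread between replicates. KO mice were MxCre1+/-,RUNX1f/f and WT mice were MxCre1-/-,RUNX1f/f, so both genotypes carried floxed Runx1 alleles and only KO mice carried the recombinase. All mice had been given poly(I:C), an RNA duplex that triggers an interferon response, by 4 injections, and cells were taken 4 weeks after injection. The Mx1 promoter that drives MxCre1 responds to interferon in many cell types, so deletion is not limited to stem cells, and no mice without poly(I:C) or with MxCre1 and intact Runx1 are among the groups compared. Sort markers other than CD41 are not named in the labels.

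RUNX1 is a DNA-binding transcription factor that pairs with CBF-beta. It is needed for the first stem cells of the embryo to form, and in the adult it governs the maturation of megakaryocytes, lymphocytes and granulocytes. CD41, the product of Itga2b, is an integrin alpha chain which platelets use to bind fibrinogen and which marks HSCs biased towards megakaryocytes. CD41neg HSCs are the fraction without that surface protein.

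Library totals ran from 44108035 to 58946457 counts. Levels are TMM-scaled counts per library size (CPM), and changes are log2 fold changes of KO over WT ± SE from edgeR's quasi-likelihood test, with Benjamini-Hochberg adjusted p-values over 19395 genes. The labels do not say that each library came from its own animal, so each p-value reflects library-to-library spread, which may be technical in part. WT 2 and WT 4 stood apart from WT 3 in a small set of genes, as did CD41pos WT 1 and WT 4 from CD41pos WT 3. A term for these 4 libraries called 44 genes higher and 78 lower in them than in WT 3. That contrast rests on WT 3 alone in each gate, and KO libraries enter it only through the shared spread. The grouping itself came from these data, and these 4 libraries also have the lowest library numbers of the study. Library order therefore cannot be told apart from this grouping. Over all genes WT 2 and WT 4 did not pair off: WT 2 was nearer to WT 3 than to WT 4 (Spearman correlations across genes of 0.976 and 0.965). KO 2 lay apart from KO 1 and KO 3 over all genes (0.967 and 0.974, against 0.994 between KO 1 and KO 3). The immediate early gene Nr4a1 was at 20.2 and 18.6 CPM in WT 2 and WT 4, at 320 CPM in WT 3 and at 237 to 396 CPM in KO. Results are therefore given with a term for these 4 WT libraries and without them where that changes a call. Without them WT 3 alone stands for WT, and its spread is taken to equal that of the other groups. Xist, the transcript of the inactive X chromosome, was at 113 to 259 CPM in WT and at 308 CPM in KO 2, against 0.901 and 1 CPM in KO 1 and KO 3. The Y-linked gene Ddx3y was at 103 and 92.9 CPM in KO 1 and KO 3, at 0.155 CPM in KO 2, and at 19.4, 38.9 and 0 CPM in WT 2, 3 and 4. WT 2 and WT 3 thus held Xist together with a Y-linked transcript, and the sexes were not balanced between the groups. All WT libraries have lower library numbers than all KO libraries, and library order cannot be told apart from genotype. Kit, the stem cell factor receptor, was present in all 6 libraries, at 492 to 791 CPM in WT and 889 to 1044 CPM in KO. Kit is not limited to HSCs and is also on the list of basophil, mast cell and eosinophil genes. Procr, Mecom and Hlf, which mark long-term HSCs, were each lowest in KO 2, below every WT library.

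At an adjusted p below 0.05, 1517 of the 19395 genes tested (7.82%) differed between KO and WT CD41neg HSCs. Of these, 747 (3.85% of genes tested) were higher and 770 (3.97%) were lower in KO. A log2 change of at least 1 in size was seen in 369 of the higher (1.9%) and 458 of the lower genes (2.36%). KO and WT libraries did not overlap in 1495 of the 1517 genes, and in 35.5% of all genes tested (18.5% with KO above WT, 17.0% with KO below). Not a single gene was below 1 CPM in every WT library and at 10 CPM or more in every KO library. The reverse held for Prss34, Mcpt8 and Scin, so losses of a transcript to near background were few and gains from background did not occur at this level. The volcano plot shows both directions and the named genes.

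**Figure D1:**
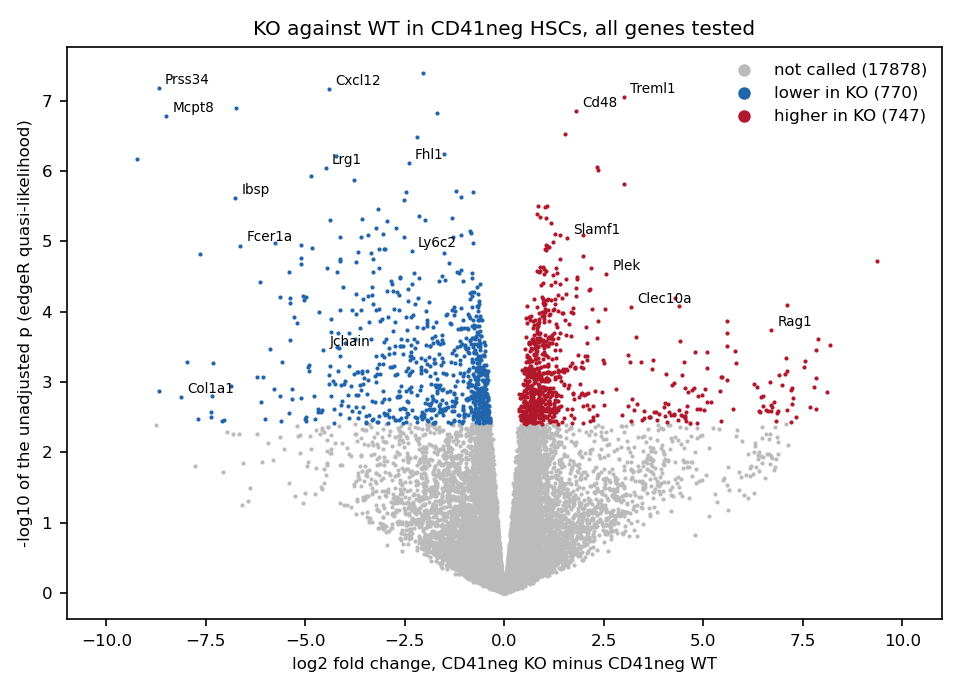
Each point is 1 of the 19395 genes tested, with the log2 fold change of KO over WT in CD41neg HSCs on the x axis and -log10 of the unadjusted edgeR p on the y axis. Red points are the 747 genes higher and blue points the 770 genes lower in KO at an adjusted p below 0.05, with Prss34 and Mcpt8 farthest to the upper left among the labelled genes.

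The count of called genes moved with single libraries. It was 524, 657 and 341 without KO 1, KO 2 and KO 3, and 959 and 462 without WT 2 and WT 4. Leaving out a CD41pos library alters the shared spread and, to a lesser degree, the scaling and the set of genes tested. The count was 966, 976 and 859 without CD41pos KO 1, 2 and 3 and 3856 without CD41pos WT 3. Of the 1517 genes, 275 were called in all 12 such fits. With the term for the 4 WT libraries 922 kept their call and 1516 kept their direction, and without these libraries 759 kept their call. Over all genes 4.92% were higher and 3.75% lower with the term, and 4.11% and 3.34% without the 4 libraries. In all of these fits and also after an offset for GC content and transcript length, 199 genes were called, 77 higher and 122 lower. A gene is said below to hold throughout where it is among these 199.

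Called genes differed in transcript length and base composition by direction. The median transcript was 5256 bases with 44.2% GC for genes higher in KO, 2839 bases with 54.5% GC for genes lower in KO, and 3070 bases with 49.7% GC for all genes tested. Among genes of at least 10 CPM, 12.3% of the quartile lowest in GC were higher and 0.881% lower, against 1.12% higher and 11% lower in the quartile richest in GC. With the offset, 416 genes were called higher and 565 lower, and of 1406 called genes with a transcript 744 kept their call. Whether length and GC content account for a given gene's change was not tested, and the value with the offset is given below where it ends a call.

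**Figure D2:**
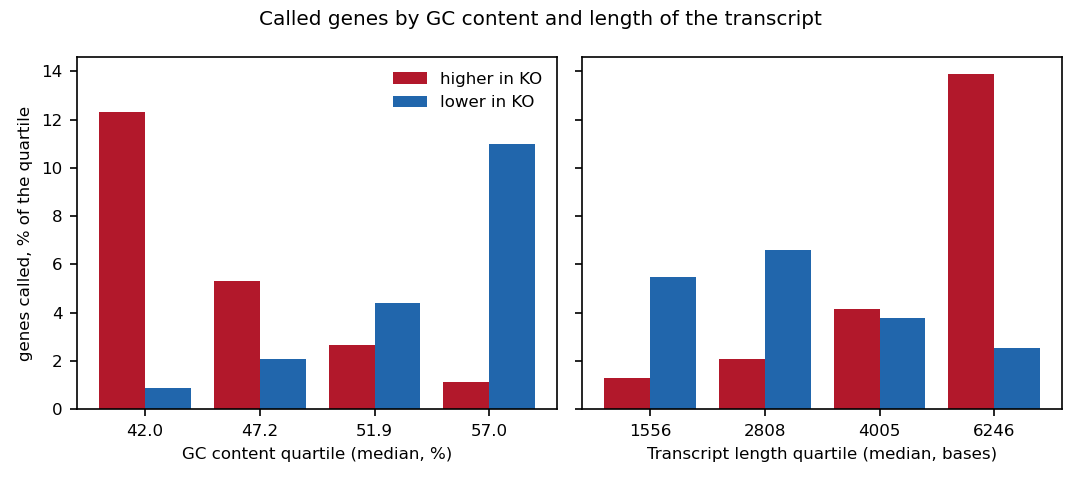
Bars give the percentage of genes of at least 10 CPM called higher (red) or lower (blue) in KO CD41neg HSCs, in quartiles of transcript GC content (left) and transcript length (right), with each quartile's median under it. Genes higher in KO rise from 1.28% in the shortest to 13.9% in the longest quartile and fall from 12.3% to 1.12% with GC content.

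Genes of basophils, the granulocytes that carry IgE receptors and release proteases and cytokines, were among those with the lowest log2 fold changes. Prss34 and Mcpt8 encode serine proteases of basophil granules, and Fcer1a encodes the IgE-binding chain of the high-affinity IgE receptor. The 250 bases before the RefSeq start of these genes (GRCm38.p6) are shown because the genes fell together and each stretch holds a RUNX core motif. The motifs searched were TGTGGT and TGCGGT on both strands, which do not overlap one another. Sequences run 5′ to 3′ on the strand of the gene, with motif letters in capitals.
Prss34 (chr17:25298144-25298393, plus strand): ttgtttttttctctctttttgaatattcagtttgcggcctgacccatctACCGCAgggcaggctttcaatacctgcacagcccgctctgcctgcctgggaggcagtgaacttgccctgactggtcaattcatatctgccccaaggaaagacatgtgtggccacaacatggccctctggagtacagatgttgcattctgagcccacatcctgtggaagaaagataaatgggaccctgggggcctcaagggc
Mcpt8 (chr14:56085198-56085447, minus strand): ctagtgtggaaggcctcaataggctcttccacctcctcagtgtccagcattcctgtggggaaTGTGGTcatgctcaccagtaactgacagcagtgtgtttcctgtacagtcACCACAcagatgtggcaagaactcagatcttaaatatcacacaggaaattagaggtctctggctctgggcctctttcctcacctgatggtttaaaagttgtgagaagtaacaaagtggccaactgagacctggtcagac
Fcer1a (chr1:173227230-173227479, minus strand): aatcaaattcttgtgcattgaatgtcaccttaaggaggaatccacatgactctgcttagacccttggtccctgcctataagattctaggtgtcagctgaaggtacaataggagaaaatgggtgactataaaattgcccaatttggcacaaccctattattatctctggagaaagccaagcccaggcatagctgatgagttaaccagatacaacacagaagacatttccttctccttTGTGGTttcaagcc
Counting the base before the start as -1, Prss34 has TGCGGT on the opposite strand from -201. Mcpt8 has TGTGGT on the gene's strand from -188 and on the opposite strand from -139. Fcer1a has TGTGGT on the gene's strand from -14. A motif of either form is common: it was in 18.1% of the 13513 promoters of tested genes, in 15.2% of 539 promoters of genes higher in KO and in 15.8% of 565 promoters of genes lower in KO. Among the 32 genes with the highest and lowest changes, chosen by the rule for named genes, 24 had a promoter entry and 5 of these held a motif. They are the 3 shown and Fbxl13 and Clec4e, which were higher in KO (edgeR adjusted p = 0.0314 for each). Both lost the call with the term (0.0503 and 0.0742) and without the 4 WT libraries (0.162 and 0.25), Clec4e with the offset (0.0552), and both in leave-one-out fits, at most to 0.0964 without KO 2 and 0.107 without WT 4. Called genes did not hold the motif more often than tested genes at large, and a match is a stretch of letters, not a measured binding site.

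Prss34 was at 314, 59.5 and 350 CPM in WT 2, 3 and 4 and at 0.666, 0.774 and 0.323 CPM in KO 1, 2 and 3. The lowest WT library was far above the highest KO library, and the log2 fold change was -8.68 ± 0.76 (edgeR adjusted p = 0.000409). Mcpt8 measured 109, 15.4 and 103 CPM in WT and 0.196, 0.241 and 0.187 CPM in KO (-8.50 ± 0.81, edgeR adjusted p = 0.000409). Fcer1a measured 14.6, 2.27 and 17.2 CPM in WT and 0.0392, 0.206 and 0.0850 CPM in KO (-6.64 ± 0.94, edgeR adjusted p = 0.00362). All 3 genes held throughout. In each of them WT 3 was the lowest WT library, and without WT 2 and WT 4 the log2 fold changes were -6.66 (Prss34), -6.20 (Mcpt8) and -4.32 (Fcer1a). In bulk RNA, fewer cells of a type and less RNA per cell cannot be told apart.

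Of the 18 tested members of the basophil, mast cell and eosinophil list 4 were lower, these 3 genes and Prg2, and 1 was higher. That is 27.8% called, beside 7.82% of all genes tested. The split was 4 lower and 3 higher with the term, 6 and 2 without the 4 WT libraries, and 3 and 1 with the offset. Prg2, encoding the eosinophil major basic protein, was at 311, 408 and 34.5 CPM in WT and 40.7, 9.08 and 35.3 CPM in KO, with WT 4 inside the KO range (-3.15 ± 0.86, edgeR adjusted p = 0.0442). Its call was lost in 9 of the 12 leave-one-out fits, to an adjusted p of 0.122 without KO 2, and with the offset (adjusted p = 0.0747). Il1rl1, which encodes the receptor for interleukin-33 carried by mast cells and basophils, rose from 53.7, 43.6 and 38.5 CPM to 86.0, 173 and 103 CPM (1.41 ± 0.32, edgeR adjusted p = 0.0236). That call was lost without the 4 WT libraries (adjusted p = 0.0743) and on leaving out KO 2, KO 3, WT 3 or WT 4, with an adjusted p of 0.0954 without WT 4. Cpa3, a mast cell carboxypeptidase gene, was at 42.2, 16.7 and 34.6 CPM in WT and 91.6, 38.2 and 60.9 CPM in KO and did not pass (1.03 ± 0.39, edgeR adjusted p = 0.118). It passed with the term (1.92, adjusted p = 0.00941). Ms4a2, the beta chain of the IgE receptor, overlapped between the groups at 4.98 to 10.9 CPM in WT and 8.60 to 10.7 CPM in KO.

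**Figure D3:**
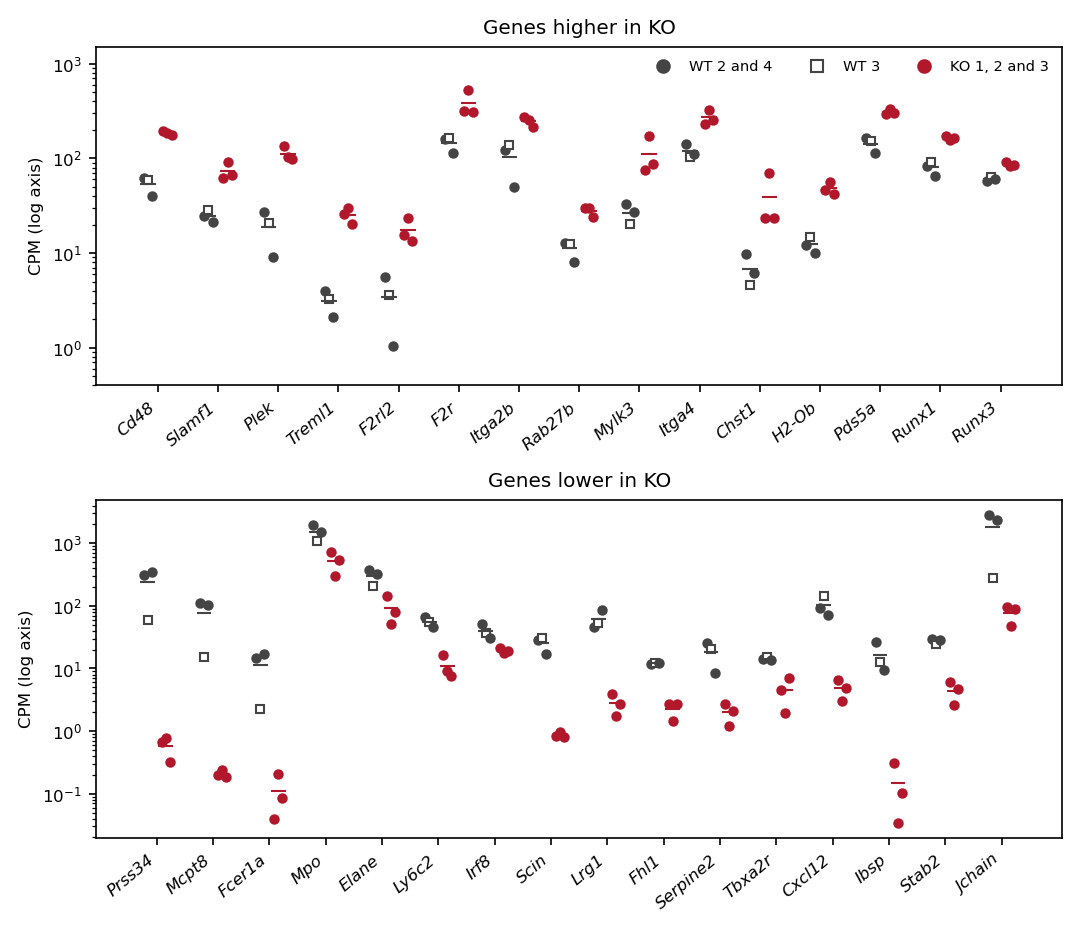
CPM of named genes in each CD41neg library on a log axis, with genes higher in KO in the upper and genes lower in KO in the lower panel; filled grey points are WT 2 and 4, open squares WT 3, red points KO 1, 2 and 3, and short lines are group means. The KO points of Prss34 and Mcpt8 lie below 1 CPM while every WT point lies above 15 CPM.

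Genes of granulocyte-monocyte progenitors were lower as well. Of 23 tested members 7 were lower and none was higher (30.4% called, beside 7.82% of all genes tested). The list's median log2 fold change was -1.26, beside -0.03 over all genes tested. Ly6c2, which encodes the monocyte surface antigen Ly6C, measured 66.8, 54.3 and 45.3 CPM in WT and 16.6, 9.12 and 7.60 CPM in KO (-2.32 ± 0.33, edgeR adjusted p = 0.00375), and held throughout. Irf8, a transcription factor of the monocyte and dendritic lineages, fell from 52.1, 37.5 and 30.5 CPM to 21.6, 17.7 and 19.1 CPM (-1.04 ± 0.19, edgeR adjusted p = 0.0101). Its call was lost only without KO 3 among the leave-one-out fits (adjusted p = 0.0503). Mpo, myeloperoxidase of the azurophil granule, fell from 1927, 1084 and 1531 CPM to 714, 297 and 539 CPM (-1.55 ± 0.35, edgeR adjusted p = 0.0223). Elane, neutrophil elastase, fell from 379, 207 and 323 CPM to 142, 51.9 and 78.9 CPM (-1.74 ± 0.39, edgeR adjusted p = 0.0223). Ctsg (cathepsin G), Ms4a3 and Cebpa, the transcription factor that starts granulocyte development, made up the rest of the 7.

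The number of members called in this list depended on the WT libraries. Its median log2 fold change was -1.26 in the main fit, -1.13 with the term and -0.95 without the 4 WT libraries. WT 3 had the lowest level of Mpo, Elane, Ctsg and Ms4a3 among the WT libraries. With the term 3 members were lower (Ly6c2, Irf8 and Ms4a3) and without the 4 WT libraries 2 were. Mpo and Elane then had adjusted p-values of 0.0813 and 0.0654 with the term and of 0.220 and 0.236 without the 4 libraries. Both calls were also lost on leaving out KO 2, KO 3, WT 2 or WT 4, at most to 0.0767 (Mpo) and 0.0903 (Elane), both without KO 3. With the offset 5 members were lower and 1 was higher, and Elane (-1.36, adjusted p = 0.0672) and Cebpa (-0.87, 0.103) lost their calls. Ctsg and Cebpa also lost theirs with the term (adjusted p = 0.0635 and 0.0890), and Ctsg, Cebpa and Ms4a3 lost theirs without the 4 WT libraries (0.237, 0.265 and 0.135). Without KO 3 the adjusted p was 0.0721 for Ctsg, 0.129 for Cebpa and 0.0510 for Ms4a3. Prtn3, the gene of proteinase 3, and Spi1, the myeloid factor PU.1, did not pass, with log2 fold changes of -0.63 ± 0.28 and -0.52 ± 0.27 (edgeR adjusted p = 0.182 and 0.236). Neutrophil granule and alarmin genes are low in stem cells, and their list of 13 markers summed to 112 to 607 CPM in WT and 27.8 to 237 CPM in KO, with no member called by edgeR, 6 at an unadjusted p below 0.05 and 4 called by DESeq2. The part of mature cells in the sorted fraction in the changes of Mpo and Elane was not tested.

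Receptors of megakaryocytes and platelets had 4 members higher and 1 lower of 20 tested (25% called, beside 7.82% of all genes tested). The split was the same with the term. Treml1, a receptor stored in platelet alpha-granules, rose from 3.98, 3.25 and 2.11 CPM to 25.7, 29.6 and 20.05 CPM (3.01 ± 0.27, edgeR adjusted p = 0.000409). The lowest KO library was several times above the highest WT library, and Treml1 held throughout. Receptors for thrombin and thromboxane moved in opposite directions. F2rl2, a protease-activated receptor that helps thrombin act on mouse platelets, rose from 5.63, 3.61 and 1.03 CPM to 15.6, 23.3 and 13.6 CPM (2.35 ± 0.43, edgeR adjusted p = 0.0102) and held throughout. F2r, the protease-activated receptor 1 gene, rose from 160, 163 and 114 CPM to 317, 531 and 309 CPM (1.40 ± 0.29, edgeR adjusted p = 0.0156). The F2r call was lost without KO 2, without WT 4 (adjusted p = 0.0671) and without the 4 WT libraries (0.0539). Tbxa2r, the thromboxane A2 receptor gene, fell from 14.1, 15.2 and 13.8 CPM to 4.51, 1.98 and 6.94 CPM (-1.68 ± 0.33, edgeR adjusted p = 0.0139). Tbxa2r lost its call without KO 1 (adjusted p = 0.0505) and without the 4 WT libraries (0.0703).

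Itga2b, which encodes the antigen the cells were sorted against, was present in CD41neg HSCs and was higher in KO. It measured 122, 138 and 49.6 CPM in WT and 270, 257 and 213 CPM in KO, with no overlap (1.26 ± 0.28, edgeR adjusted p = 0.0223). The call was lost with the term (adjusted p = 0.0631) and on leaving out any 1 KO library, at most to 0.0725 without KO 1, and the change was 0.84 without the 4 WT libraries. Its integrin partner Itgb3 overlapped between the groups, at 6.43 to 18.1 CPM in WT and 7.72 to 14.6 CPM in KO (0.12 ± 0.41, edgeR adjusted p = 0.877). Gp1ba, a subunit of the receptor for von Willebrand factor, passed with the term (1.10, adjusted p = 0.00882) and not in the fit without it (0.56 ± 0.25, edgeR adjusted p = 0.168).

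Platelet granule, enzyme and cytoskeleton genes were split, with 3 higher and 4 lower of 23 tested (30.4% called, beside 7.82% of all genes tested). Plek encodes pleckstrin, the main substrate of protein kinase C in platelets, and rose from 26.9, 20.8 and 9.08 CPM to 134, 102 and 99.5 CPM (2.56 ± 0.40, edgeR adjusted p = 0.00528). Rab27b, a GTPase needed for dense granule release, rose from 12.8, 12.6 and 8.12 CPM to 29.7, 30.1 and 23.8 CPM (1.32 ± 0.20, edgeR adjusted p = 0.00528). Both held throughout, although the change of Rab27b was 0.78 with the offset. Mylk3, a myosin light chain kinase gene, rose from 32.8, 20.1 and 27.1 CPM to 75.7, 173 and 87.4 CPM (2.07 ± 0.41, edgeR adjusted p = 0.0142), and its call was lost without WT 4 (adjusted p = 0.0551). Serpine2, a thrombin inhibitor of platelet granules, fell from 25.3, 20.2 and 8.60 CPM to 2.67, 1.22 and 2.09 CPM (-3.18 ± 0.40, edgeR adjusted p = 0.00222) and held throughout. Sparc, which platelets and bone-forming cells both make, fell from 119, 59.4 and 71.0 CPM to 10.1, 2.77 and 5.42 CPM (-3.77 ± 0.43, edgeR adjusted p = 0.00136). Sparc is also on the list of stromal markers described below, 10 of 18 of which were lower in KO. Pf4, the platelet chemokine gene, overlapped at 4.47 to 7.88 CPM in WT and 5.40 to 22.1 CPM in KO (1.26 ± 0.42, edgeR adjusted p = 0.0808), and Vwf overlapped as well (-0.48 ± 0.47, edgeR adjusted p = 0.546). Clu and Myl9 were the other members lower in KO. Both calls were lost without the 4 WT libraries (adjusted p = 0.0843 and 0.136) and with the offset (0.0763 and 0.0710), and Myl9 was lost with the term as well (0.0701). Clu was lost in 4 leave-one-out fits, at most to 0.11 without KO 3, and Myl9 in 9, at most to 0.122 without KO 1.

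Of 14 transcription factors of the megakaryocyte and erythroid lineages tested, none was called by edgeR and 3 were called by DESeq2. An unadjusted edgeR p below 0.05 was seen in 8, beside 5108 of all 19395 genes tested. All KO libraries lay above the WT libraries for 4 and below them for 2, beside 18.5% and 17% of all genes tested. In CD41pos HSCs 4 were called higher and 0 lower. The summed level of the 14 was 3162 to 3408 CPM in WT and 3267 to 3450 CPM in KO. Gata2, a stem and progenitor cell factor, measured 529, 563 and 418 CPM in WT and 502, 620 and 498 CPM in KO (0.10 ± 0.13, edgeR adjusted p = 0.647). Gata1 was at 268 to 411 CPM and 246 to 362 CPM (-0.17 ± 0.20, edgeR adjusted p = 0.623). Klf1, the erythroid factor, was at 380 to 606 CPM and 288 to 380 CPM (-0.50 ± 0.28, edgeR adjusted p = 0.279). Among 20 erythroid genes (20% called, beside 7.82% of all genes tested) 3 were higher (Tfrc, Sptb and Epb42) and 1 was lower. That 1 was Car1, an early erythroid carbonic anhydrase gene, which fell from 1649, 1616 and 2327 CPM to 656, 919 and 739 CPM (-1.27 ± 0.23, edgeR adjusted p = 0.00958), and whose call was lost only without the 4 WT libraries among the fits named above (adjusted p = 0.0703). With the offset for GC content and length 1 erythroid gene was higher and 1 lower, and Tfrc and Sptb did not pass (adjusted p = 0.0988 and 0.0838). Tfrc and Epb42 were lost without the 4 WT libraries (0.102 and 0.109). Tfrc was lost in 4 leave-one-out fits and Sptb and Epb42 in 9 each, at most to 0.0955 and 0.121 without KO 2 and to 0.145 without WT 4.

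The gene total of Runx1 (chr16:92601466-92826149, minus strand, mm10) was higher in KO, at 171, 157 and 163 CPM against 84.0, 90.5 and 65.7 CPM in WT (1.03 ± 0.15, edgeR adjusted p = 0.00368), and held throughout. The labels do not say which exons are floxed, and a gene total counts exons that remain, so this total does not check the deletion. Runx3, which binds the same DNA motif, was at 92.1, 83.3 and 84.7 CPM in KO and 57.9, 62.8 and 60.9 CPM in WT (0.52 ± 0.13, edgeR adjusted p = 0.0300). The Runx3 call was lost with the term (adjusted p = 0.0976) and in 7 of the 12 leave-one-out fits, at most to 0.0935 without KO 1. Runx2 overlapped between the groups (0.48 ± 0.25, edgeR adjusted p = 0.246), and so did Cbfb, the shared partner, at 73.3 to 145 CPM in WT and 132 to 150 CPM in KO (0.29 ± 0.22, edgeR adjusted p = 0.422).

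A pair of SLAM family receptors rose strongly. Cd48 and Slamf1 lie near each other on chromosome 1 (chr1:171682009-171705258 and chr1:171767127-171801184, both plus strand, mm10). They encode CD48 and CD150, surface proteins commonly used together to sort HSCs, which carry CD150 and lack CD48. Cd48 was at 61.6, 59.3 and 40.5 CPM in WT and 193, 187 and 178 CPM in KO (1.79 ± 0.17, edgeR adjusted p = 0.000409). The spread within each group was small beside the gap between them. Slamf1 was at 24.5, 28.2 and 21.4 CPM in WT and 62.6, 92.5 and 66.0 CPM in KO (1.58 ± 0.22, edgeR adjusted p = 0.00318). Both held throughout, and Cd48 kept its call in each alternative run for it, a minimum log2 change of 1 included. Slamf1 lost it only with that minimum.

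Other regulators and markers of stem cells were mixed. Of 28 tested, Cd48 and Slamf1 were higher and Hoxb5 and Ndn were lower (14.3% called, beside 7.82% of all genes tested). The median log2 fold change was -0.01. Ndn, an imprinted growth suppressor gene linked to stem cell quiescence, fell from 20.4, 24.5 and 17.6 CPM to 5.39, 0.963 and 4.90 CPM (-2.47 ± 0.55, edgeR adjusted p = 0.0220). That call was lost without KO 3 (adjusted p = 0.0634), without WT 4 and without the 4 WT libraries (0.0836). Procr, Mecom and Hlf, which mark long-term HSCs, did not pass (edgeR adjusted p = 0.898, 0.892 and 0.507). KO 2 was the lowest library for each of them, with 17.0, 21.0 and 70.4 CPM, below every WT library, while KO 1 and KO 3 lay at 73.3 and 73.0 (Procr), 95.4 and 99.4 (Mecom), and 237 and 234 CPM (Hlf). KO 2 was thus apart from the other KO libraries in these markers, as it was over all genes. Hoxb5 lost its call with the term (adjusted p = 0.0512), without the 4 WT libraries (0.166), with the offset (0.0877) and in 10 leave-one-out fits, at most to 0.117 without WT 4. Kit passed only with the term (1.24, adjusted p = 0.0370) and without the 4 WT libraries (0.82, adjusted p = 0.0147), beside 0.68 ± 0.34 and an edgeR adjusted p of 0.224. Among 20 ageing-linked genes 4 were lower and 2 were higher (30% called, beside 7.82% of all genes tested). Fhl1, an X-linked LIM-domain gene, fell from 11.8, 12.3 and 12.2 CPM to 2.68, 1.43 and 2.72 CPM (-2.41 ± 0.26, edgeR adjusted p = 0.00107) and held throughout. Nupr1, a stress-induced nuclear protein gene, fell from 13.9, 12.4 and 12 CPM to 5.62, 2.96 and 6.43 CPM (-1.35 ± 0.25, edgeR adjusted p = 0.0108), a call lost without the 4 WT libraries (adjusted p = 0.0692).

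Receptors for homing and niche adhesion had 6 members higher and none lower of 27 tested (22.2%, beside 7.82% of all genes). With the term 8 were higher and with the offset 5. Itga4, the alpha-4 chain with which stem cells bind VCAM-1 in the marrow, rose from 143, 103 and 112 CPM to 232, 328 and 253 CPM (1.18 ± 0.19, edgeR adjusted p = 0.00634). It held throughout, with a change of 0.62 with the offset. S1pr1, the sphingosine 1-phosphate receptor that guides exit into blood, rose from 36.3, 37.5 and 15.2 CPM to 79.2, 66.7 and 81.5 CPM (1.35 ± 0.26, edgeR adjusted p = 0.0136), a call lost without KO 3 (adjusted p = 0.0554). Itgb2, the common beta-2 chain of leukocyte integrins, rose from 98.0, 72.3 and 54.5 CPM to 156, 141 and 135 CPM (0.94 ± 0.22, edgeR adjusted p = 0.0245). Podxl, a sialomucin of the CD34 family, rose from 9.43, 19.9 and 11 CPM to 31.4, 44.4 and 26.3 CPM (1.34 ± 0.30, edgeR adjusted p = 0.0218). The Itgb2 call was lost in 5 leave-one-out fits, at most to 0.0902 without WT 4, and the Podxl call in 3, at most to 0.0868 without WT 4. Podxl also lost it with the term (adjusted p = 0.0573) and without the 4 WT libraries (0.180). Itgav was the other named member higher in KO, lost in 9 leave-one-out fits, at most to 0.133 without WT 4. Cxcr4, the receptor for CXCL12, overlapped between the groups at 8.87 to 15.8 CPM in WT and 7.98 to 13.7 CPM in KO (0.01 ± 0.27, edgeR adjusted p = 0.992).

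Lymphoid priming genes had 3 members higher and 1 lower of 20 tested (20% called, beside 7.82% of all genes tested). Rag1, whose product cuts DNA in antigen receptor rearrangement, was at 0, 0.0908 and 0 CPM in WT and at 4.74, 2.10 and 2.86 CPM in KO (edgeR adjusted p = 0.0118). With WT this close to 0 the fitted fold depends on the prior count and is not given. Rag1 held throughout. Rag2, its partner and neighbour on chromosome 2, was at 0.0780, 0.999 and 0.0207 CPM in WT and 8.09, 1.82 and 3.66 CPM in KO (edgeR adjusted p = 0.0446). WT 3 was the highest WT library for both genes. The Rag2 call was lost in 10 of the 12 leave-one-out fits, at most to 0.144 without KO 1, with the term (0.0654), without the 4 WT libraries (0.184) and with the offset (0.0692). Dntt, the terminal transferase gene of early lymphoid progenitors, was at 0.858, 11.1 and 0.620 CPM in WT and 39.6, 14.6 and 30.6 CPM in KO and did not pass (2.76 ± 1.18, edgeR adjusted p = 0.162). Il7r and Flt3 overlapped between the groups (edgeR adjusted p = 0.834 and 0.266).

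In antigen presentation, 1 of 18 genes was higher and 1 lower (11.1% called), near the 7.82% of all genes tested. H2-Ob, a chain of the H2-O molecule that modulates peptide loading on MHC class II, rose from 12.2, 14.8 and 9.96 CPM to 46.3, 56.0 and 42.4 CPM (1.97 ± 0.27, edgeR adjusted p = 0.00313) and held throughout. Cd74, the class II invariant chain gene, was lower, at 123, 88.9 and 121 CPM in KO against 496, 216 and 278 CPM in WT (-1.57 ± 0.33, edgeR adjusted p = 0.0179). Its call was lost with the term (adjusted p = 0.0671), with the offset (0.0819) and on leaving out KO 1, KO 2, KO 3 or WT 2, at most to 0.0648 without KO 2, and the change was -0.97 without the 4 WT libraries. The class II gene H2-Aa and the class II activator gene Ciita did not pass (edgeR adjusted p = 0.374 and 0.704).

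Cohesin is the ring that holds sister chromatids and shapes chromatin loops. Of 27 cohesin, CTCF and chromatin genes 8 were higher and 1 was lower, which is 33.3% called, beside 7.82% of all genes tested. With the offset 4 were higher and 1 lower, and the list's median log2 fold change went from 0.35 to 0.11. Pds5a, which binds cohesin and controls its release, was at 164, 152 and 115 CPM in WT and 297, 330 and 304 CPM in KO (1.11 ± 0.16, edgeR adjusted p = 0.00368). Its paralogue Pds5b rose from 80.6, 76.8 and 60.3 CPM to 136, 154 and 138 CPM (0.98 ± 0.16, edgeR adjusted p = 0.00612). Both held throughout. Stag1 and Stag2, alternative cohesin subunits, rose by 0.80 ± 0.17 and 1.14 ± 0.27 (edgeR adjusted p = 0.0183 and 0.0289). Their calls were lost in 3 and 5 leave-one-out fits, at most to 0.0767 and 0.103, both without WT 4. With the offset for GC content and length the changes shrank to 0.62 (Pds5a), 0.47 (Pds5b), 0.37 (Stag1) and 0.65 (Stag2). These 4 genes were still called there, whereas Tet1, Asxl2, Kmt2a and Wapl were not (adjusted p = 0.350, 0.904, 0.417 and 0.773). Tet1, Asxl2 and Kmt2a also lost their calls with the term (0.0620, 0.0595 and 0.0915), and Tet1, Asxl2 and Wapl without the 4 WT libraries (0.126, 0.134 and 0.0604). The highest adjusted p in the leave-one-out fits was 0.102 for Tet1 and for Asxl2 and 0.124 for Kmt2a, each without KO 3, and 0.141 for Wapl without KO 2. Core cohesin genes did not pass: Smc3 differed by 0.35 ± 0.10 and Rad21 by 0.31 ± 0.12 (edgeR adjusted p = 0.0607 and 0.112). Dnmt3a, the DNA methyltransferase gene often mutated in clonal blood formation, fell from 89.6, 109 and 81.8 CPM to 69.8, 55.9 and 62.6 CPM (-0.57 ± 0.14, edgeR adjusted p = 0.0324). The Dnmt3a call was lost in 8 of the 12 leave-one-out fits, at most to 0.108 without KO 2.

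Lists of signalling and proliferation had shares of called members on both sides of the 7.82% of all genes tested. Of 20 NF-kB genes 2 were higher and 1 was lower (15% called). Rel, which encodes the NF-kB subunit c-Rel, rose from 3.10, 2.52 and 1.63 CPM to 9.94, 6.02 and 9.96 CPM (1.84 ± 0.29, edgeR adjusted p = 0.00557) and held throughout. Tnfaip3, the feedback inhibitor A20, was at 32.3, 100 and 14.3 CPM in WT and 179, 250 and 151 CPM in KO (1.98 ± 0.51, edgeR adjusted p = 0.0385). WT 3 was well above the other WT libraries, and the Tnfaip3 call was lost with the term (adjusted p = 0.0712), without the 4 WT libraries (0.95, adjusted p = 0.129), with the offset (0.0791) and in 9 leave-one-out fits, at most to 0.104 without KO 2. Of 36 interferon response genes 3 were higher (Oas2, Ifi203 and Mx2) and 1 lower (Ly6e), which is 11.1% called. Ifi203, Mx2 and Ly6e lost their calls without the 4 WT libraries (adjusted p = 0.0970, 0.277 and 0.0853), Mx2 and Ly6e with the term (0.0962 and 0.0572), and Ly6e with the offset (0.353). Each of the 4 was lost in 3 or more leave-one-out fits, at most to 0.0873 (Oas2) and 0.121 (Ly6e) without WT 4, 0.0636 (Ifi203) without KO 3 and 0.147 (Mx2) without KO 1. None of 25 immediate early and stress genes was called by edgeR, while 8 had an unadjusted p below 0.05 and 2 were called by DESeq2. Their median log2 fold change was 0.67, and 0.05 without the 4 WT libraries, in which Nr4a1 and Atf3 were low.

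Among 38 cell cycle genes Top2a and Mki67 were higher and none was lower (5.26% called, beside 7.82% of all genes tested). Top2a, the topoisomerase of dividing cells, was at 329, 334 and 326 CPM in WT and 459, 622 and 488 CPM in KO (0.67 ± 0.13, edgeR adjusted p = 0.0142). Top2a lost its call without WT 4 (adjusted p = 0.0529), without the 4 WT libraries (0.0503) and with the offset (0.31, adjusted p = 0.134). Mki67 (0.50 ± 0.13, edgeR adjusted p = 0.0426) was lost in 8 leave-one-out fits, at most to 0.142 without KO 2, with the term (adjusted p = 0.0667) and with the offset (0.05, adjusted p = 0.871). Of 14 CDK inhibitors, D cyclins and partners 2 were lower (14.3% called). Ccnd2, cyclin D2, fell from 345, 410 and 434 CPM to 286, 258 and 266 CPM (-0.55 ± 0.13, edgeR adjusted p = 0.0290), lost in 5 leave-one-out fits, at most to 0.101 without KO 3. Cdkn2c, which encodes the CDK4 and CDK6 inhibitor p18, fell from 37.8, 38.3 and 36.1 CPM to 23.6, 24.9 and 22.3 CPM (-0.66 ± 0.15, edgeR adjusted p = 0.0209). The Cdkn2c call was lost in 4 leave-one-out fits, at most to 0.0872 without KO 3, and with the offset (-0.32, adjusted p = 0.197).

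HOX genes and their partners had 5 members lower and none higher of 22 tested (22.7% called, beside 7.82% of all genes tested). Of these 5 members 4 were in the B cluster. Hoxb2 fell from 12.2, 9.38 and 12.6 CPM to 4.27, 3.94 and 5.44 CPM (-1.32 ± 0.23, edgeR adjusted p = 0.00905), and its call was lost without the 4 WT libraries (adjusted p = 0.0535). Hoxb9 was at 1.09, 1.09 and 0.972 CPM in WT and at 0, 0.0172 and 0.0170 CPM in KO (edgeR adjusted p = 0.0236), lost in 4 leave-one-out fits, at most to 0.0880 without KO 3. With the term and with the offset 2 members of the list were lower. Hoxa9, prominent in stem cells, and its cofactor Meis1 did not pass (edgeR adjusted p = 0.897 and 0.0985).

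Sulfotransferases, which add sulfate to glycan chains, changed in both directions, with 1 higher and 3 lower of 24 tested. That is 16.7% called, beside 7.82% of all genes tested. Chst1, a keratan sulfate sulfotransferase gene, rose from 9.78, 4.54 and 6.22 CPM to 23.2, 70.9 and 23.7 CPM (2.52 ± 0.44, edgeR adjusted p = 0.00904). Its call was lost without the 4 WT libraries (3.11, adjusted p = 0.0522). Chst2, which acts on N-acetylglucosamine, fell from 17.1, 15.4 and 20.6 CPM to 3.19, 0.740 and 2.92 CPM (-2.95 ± 0.49, edgeR adjusted p = 0.00717) and held throughout. Chst7 and Chst13 fell by 2.93 and 2.98 on the log2 scale (edgeR adjusted p = 0.00973 and 0.0136), and both calls were lost without the 4 WT libraries (adjusted p = 0.0866 and 0.132). Chst13 was also lost without KO 2 and without KO 3 (adjusted p = 0.0634 without KO 3). Of 22 glycolysis enzymes none was called by edgeR, 9 had an unadjusted p below 0.05 and DESeq2 called 6, and with the term 6 were lower. Of 27 ribosome biogenesis genes 3 were lower (Nop2, Bop1 and Nop56) and 1 was higher (Utp20), and with the term 6 were lower. In the main fit 14.8% were called, beside 7.82% of all genes tested. With the offset Nop2, Bop1 and Utp20 shrank to -0.34, -0.17 and 0.25 (adjusted p = 0.0604, 0.326 and 0.193), and with the term Nop56 did not pass (0.0515). The leave-one-out fits raised the adjusted p at most to 0.0576 (Nop2), 0.145 (Nop56) and 0.0863 (Utp20) without KO 3 and to 0.122 (Bop1) without WT 4. In 5 other lists 4.17% to 10.8% of members were called, beside 7.82% of all genes tested. Of 37 cytokine receptors 2 were higher (Il1rl1 and Ifnar2) and 2 lower (Lepr and Lifr), and of 23 guidance genes 2 were lower (Sema4a and Nrp1). Of 20 p53 targets Aen was lower, of 24 heat shock and unfolded protein genes Xbp1 was lower, and of 21 Toll-like receptor genes Irak4 was higher. Lepr and Xbp1 also stand in the lists of stromal and plasma cell markers. Lepr kept its call in each of the 12 leave-one-out fits, whereas the calls of Xbp1, Il1rl1, Sema4a, Lifr, Ifnar2, Aen, Nrp1 and Irak4 were lost in 3, 4, 4, 6, 9, 9, 10 and 11 of them. The highest edgeR adjusted p was 0.056 for Xbp1 without KO 2 and 0.0954 for Il1rl1 without WT 4. It was 0.111 for Sema4a, 0.152 for Aen and 0.166 for Nrp1 without KO 3, 0.111 for Lifr and 0.147 for Irak4 without KO 1, and 0.101 for Ifnar2 without KO 2. With the term Ifnar2, Lifr, Sema4a, Nrp1 and Xbp1 lost their calls (adjusted p = 0.0551, 0.108, 0.0865, 0.0891 and 0.0703). Without the 4 WT libraries Lifr, Sema4a, Nrp1 and Xbp1 lost theirs (0.202, 0.0620, 0.199 and 0.211), and Aen lost its call with the offset (0.0828).

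**Figure D4:**
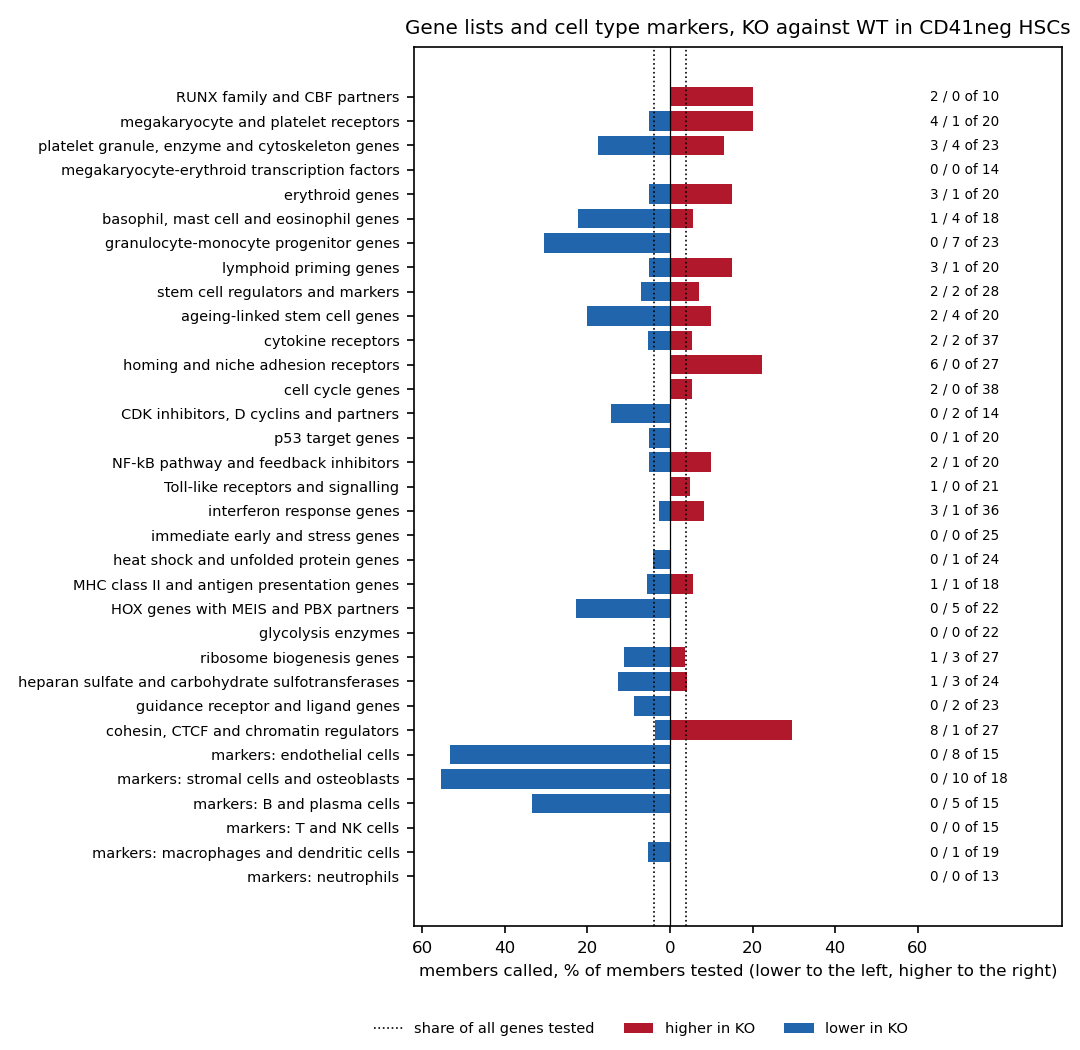
Bars give the percentage of each list's tested members called higher (right, red) or lower (left, blue) in KO CD41neg HSCs, with counts as higher / lower of tested at the right. Dotted lines mark 3.85% higher and 3.97% lower over all genes tested, and the longest bars are the stromal and endothelial markers on the lower side.

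Outside the lists, genes with the largest falls included secreted and cytoskeletal proteins. Scin (chr12:40059769-40134228, minus strand, mm10), which encodes the actin-severing protein scinderin, was at 28.8, 30.5 and 17.3 CPM in WT and 0.843, 0.963 and 0.816 CPM in KO (-4.86 ± 0.55, edgeR adjusted p = 0.00127). Lrg1 (chr17:56119678-56122001, minus strand, mm10), a secreted leucine-rich glycoprotein gene, fell from 46.5, 53.6 and 86.8 CPM to 3.90, 1.74 and 2.69 CPM (-4.49 ± 0.50, edgeR adjusted p = 0.00110). Serping1, the complement C1 inhibitor gene, fell from 15.7, 21.6 and 14.0 CPM to 1.12, 0.653 and 0.952 CPM (-4.24 ± 0.45, edgeR adjusted p = 0.000990). Tnc, the matrix protein tenascin C, fell from 14.3, 12.6 and 6.86 CPM to 0.333, 0.705 and 0.561 CPM (-4.39 ± 0.57, edgeR adjusted p = 0.00254). In each of these 4 genes WT 3 lay with the other WT libraries, and all held throughout. Tnc and Serping1 are also made by marrow stroma, whose markers fell too. Among abundant genes Kcng2, a potassium channel subunit gene, fell from 92.0, 82.9 and 168 CPM to 29.8, 43.9 and 34.0 CPM (-1.67 ± 0.33, edgeR adjusted p = 0.0142), lost on leaving out KO 1, KO 3 or WT 4, at most to 0.0634 without KO 3.

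Other genes with the largest rises were more varied. Clec10a, a C-type lectin gene, was at 0.994, 3.11 and 0.765 CPM in WT and 14.9, 7.29 and 22.0 CPM in KO (3.19 ± 0.56, edgeR adjusted p = 0.00884), lost without the 4 WT libraries (2.24, adjusted p = 0.0737). Krt80, a keratin gene, rose from 6.88, 7.74 and 7.55 CPM to 45.6, 14.9 and 36.7 CPM (2.13 ± 0.35, edgeR adjusted p = 0.00700), also lost without them (adjusted p = 0.0764). Slc9a7, an X-linked sodium-proton exchanger gene, rose from 9.84, 5.56 and 2.42 CPM to 22.6, 36.6 and 16.7 CPM (2.09 ± 0.44, edgeR adjusted p = 0.0173), lost without KO 2 (adjusted p = 0.0574). Tjp1, the tight junction protein ZO-1, rose from 40.7, 24.2 and 17.7 CPM to 97.0, 103 and 116 CPM (1.93 ± 0.42, edgeR adjusted p = 0.0209), lost on leaving out KO 1, KO 3, WT 3 or WT 4, at most to 0.0830 without WT 4. Ctla2a, a cysteine protease inhibitor gene, was among the most abundant, at 113, 287 and 88.7 CPM in WT and 640, 388 and 561 CPM in KO (1.70 ± 0.37, edgeR adjusted p = 0.0195). Its call was lost on leaving out KO 1, KO 3, WT 2 or WT 4, at most to 0.0637 without KO 3, and without the 4 WT libraries (0.88, adjusted p = 0.0676). Rgs1, a regulator of G-protein signalling, was at 61.4, 158 and 44.4 CPM in WT and 315, 175 and 235 CPM in KO (1.46 ± 0.41, edgeR adjusted p = 0.0482), and lost its call with the term (adjusted p = 0.0697), without the 4 WT libraries (0.61, adjusted p = 0.225), with the offset (0.224) and in 10 leave-one-out fits, at most to 0.142 without WT 4.

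Markers of other marrow cells moved with genotype. The 18 stromal and osteoblast markers summed to 985, 331 and 217 CPM in WT 2, 3 and 4 and to 51.0, 32.1 and 42.8 CPM in KO 1, 2 and 3. Of the 18 markers 10 were lower (55.6%, beside 3.97% of all genes tested). Cxcl12, the chemokine with which stroma retains stem cells, fell from 92.2, 144 and 71.7 CPM to 6.66, 3.03 and 4.79 CPM (-4.41 ± 0.39, edgeR adjusted p = 0.000409). Ibsp, the bone sialoprotein gene, fell from 26.4, 12.9 and 9.30 CPM to 0.314, 0.0344 and 0.102 CPM (-6.77 ± 0.82, edgeR adjusted p = 0.00187). Both held throughout, as did Lepr, the leptin receptor gene of marrow stroma, at 11, 9.04 and 4.53 CPM against 1.41, 0.482 and 0.561 CPM (-3.32 ± 0.56, edgeR adjusted p = 0.00766). Col1a1, the type I collagen chain, rested on 1 library, with 361 CPM in WT 2 and 2.38 and 4.30 CPM in WT 3 and WT 4 (-8.14 ± 2.03, edgeR adjusted p = 0.0331). Without WT 2 its adjusted p was 0.135, and it changed by -2.95 with the term (adjusted p = 0.190) and by -2.43 without the 4 WT libraries (0.131). The part of stromal RNA in the changes of Sparc, Tnc, Serping1 and Igfbp5 was not tested.

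Endothelial markers summed to 718, 678 and 841 CPM in WT and 616, 438 and 581 CPM in KO. Of these 15 markers 8 were lower (53.3%, beside 3.97% of all genes tested). Flt4, a VEGF receptor of lymphatic and sinusoidal endothelium, fell from 18.8, 15.8 and 15.0 CPM to 3.16, 1.53 and 2.79 CPM (-2.73 ± 0.37, edgeR adjusted p = 0.00304). Stab1 and Stab2, scavenger receptors of sinusoidal endothelium, fell by 1.64 and 2.64 on the log2 scale (edgeR adjusted p = 0.00602 and 0.00904), and all 3 genes held throughout. Pecam1, which stem cells also express, was at 32.5 to 49.2 CPM in WT and 44.6 to 73.4 CPM in KO and did not pass (0.74 ± 0.30, edgeR adjusted p = 0.136).

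B and plasma cell markers summed to 3747, 607 and 3049 CPM in WT 2, 3 and 4 and to 450, 257 and 386 CPM in KO. Of these 15 markers 5 were lower (33.3%, beside 3.97% of all genes tested). Jchain, the immunoglobulin joining chain of plasma cells, made up most of the sum in WT 2 and WT 4. It was at 2822, 276 and 2346 CPM in WT and 95.1, 48.4 and 88.4 CPM in KO (-4.55 ± 0.93, edgeR adjusted p = 0.0156). Jchain was lost on leaving out KO 1, KO 2 or KO 3 (at most to 0.0647 without KO 3) and without the 4 WT libraries (-1.84, adjusted p = 0.141), and with the term the change was -2.01. Without these libraries 1 marker was lower. It was Irf4, a plasma cell transcription factor, at 17.7, 6.54 and 12.1 CPM in WT and 2.04, 1.07 and 1.41 CPM in KO (-3.01 ± 0.43, edgeR adjusted p = 0.00368), which held throughout. Slpi and Derl3 followed the same order of WT libraries, at 160, 28.9 and 114 CPM and at 57.3, 4.81 and 35.6 CPM in WT 2, 3 and 4, against at most 7.86 and 1.17 CPM in KO. Unlike Jchain, both held throughout (-4.13 ± 0.62 and -5.11 ± 0.75, edgeR adjusted p = 0.00456 and 0.0043). Their changes were -2.33 and -2.35 without the 4 WT libraries. Markers of T and NK cells (90.5 to 163 CPM in WT, 56.6 to 111 CPM in KO) had none of 15 called by edgeR, 2 at an unadjusted p below 0.05 and 2 called by DESeq2. Those of macrophages and dendritic cells (223 to 278 CPM in WT, 124 to 244 CPM in KO) had 1 of 19 lower (5.26%, near the 3.97% of all genes tested). The part of these cells in the results was not tested.

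**Figure D5:**
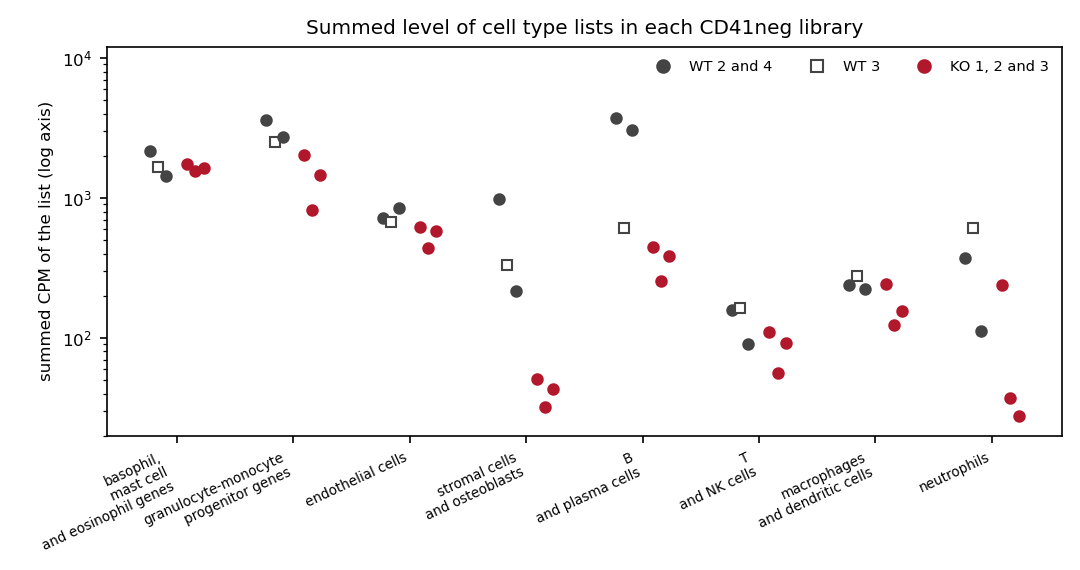
Summed CPM of cell type lists in each CD41neg library on a log axis; filled grey points are WT 2 and 4, open squares WT 3 and red points KO 1, 2 and 3. Stromal markers sum to 217 CPM or more in every WT library and to 51.0 CPM or less in every KO library, and B and plasma cell markers are high in WT 2 and WT 4 and at 607 CPM in WT 3.

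The change in CD41neg HSCs was set beside that in CD41pos HSCs, which have their own KO and WT libraries. In CD41pos HSCs 3309 genes (17.1%) were called, 9.79% higher and 7.27% lower. A test of the difference between the gates called 0 genes by edgeR's quasi-likelihood test, with a smallest adjusted p of 0.141, 1093 genes at an unadjusted p below 0.05 and 73 genes called by DESeq2. No gene is therefore shown by the edgeR test to respond differently in CD41neg HSCs. Cd48 changed by 1.79 ± 0.17 in CD41neg and 1.82 ± 0.17 in CD41pos HSCs, and Prss34 by -8.68 ± 0.76 and -8.75 ± 0.76. Lrg1 changed by -4.49 ± 0.50 and -2.27 ± 0.46, Fhl1 by -2.41 ± 0.26 and -0.74 ± 0.25, and Flt4 by -2.73 ± 0.37 and -0.38 ± 0.35, with adjusted p-values of the difference of 0.700, 0.515 and 0.515 in edgeR. The genes nearest to a difference were Adgrg6, an adhesion G-protein coupled receptor gene, at -1.23 ± 0.48 and 3.75 ± 0.53, and Kif26b, a kinesin family gene, at 0.28 ± 0.32 and 3.58 ± 0.37.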

How the data were processed

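RNA of flow-sorted HSCs (miRNeasy Micro extraction) was made into libraries with the SMART-Seq v4 kit, which copies full-length transcripts and does not mark strand, per the labels' protocols. FastQC 0.11.7, cutadapt 1.9.1, STAR 2.6.1e, featureCounts 1.6.2 and the mm10 build are named in the submitters' processing notes; their settings are not given there. The authors deposited gene counts, whole reads with no normalization, for 35869 genes, and a TPM table of the same libraries, used only as an alternative unit and to restore 27 gene names that had become dates.

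From the counts, 19395 genes entered the tests after filterByExpr with the 4 groups, which removed 16474. All 12 libraries entered a quasi-likelihood fit of 4 group means with TMM scaling (edgeR 4.0.16, R 4.3.3), two-sided, with Benjamini-Hochberg adjustment over all genes and a threshold of 0.05. SEs derive from the F statistic. Lists and members were chosen with earlier results of these data known and carry no set test.

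Named genes were Runx1, Runx2, Runx3, Cbfb and Itga2b; the 16 highest and 16 lowest log2 fold changes at a mean of at least 10 CPM and the 8 highest and lowest at 100 CPM, among called genes whose groups do not overlap, predicted genes and small RNAs left out; the 8 highest and lowest also called with the term for the 4 WT libraries; and up to 5 members of each list. Some genes are not reported here. Scin as 1 of 3 genes lost to below 1 CPM, list members beyond 5, Adgrg6, Kif26b and the genes of the 4 WT libraries were chosen after their values were seen. Promoters and positions come from RefSeq (GRCm38.p6) and GENCODE vM21 tables, 1-based.

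Alternatives were DESeq2 1.42.0, its size factors, other low-count filters and only the 6 CD41neg libraries. Others were limma-trend (limma 3.58.1) on log2(TPM + 1) and log2(TPM + 0.1), replicate number as a block, and animal label as a random block in limma-voom. Further ones were a Y-linked covariate, the term for and omission of the 4 WT libraries, a minimum log2 change of 1, and each library left out. The GC content and length offset (a smooth of each library's deviations, over genes with a GENCODE transcript) was added after seeing the data. Replicate counts differed by more than sampling noise in every pair (chi-square per degree of freedom 14.8 to 105). In a test on simulated data of this comparison (18798 genes), the fit called 57% of 2-fold and 95% of 4-fold changes and 4 unchanged genes. With a GC trend simulated as well, the same fit called 325 unchanged genes (18831 tested) and the fit with the offset 9 (16347 tested). Changes were planted only in genes above a minimum level. The simulated libraries had no set-apart WT libraries, no imbalance of the sexes and no length trend, so these rates need not hold for the real libraries.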

Additional observations from a re-analysis of the deposited data

Results flagged for a closer look

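In 4 genes every KO library lay on one side of the WT libraries in CD41neg HSCs and on the opposite side in CD41pos HSCs. Kdr, the VEGF receptor 2 gene, was at 29.1, 17.7 and 14.8 CPM in CD41neg WT and 2.84, 6.47 and 4.98 CPM in CD41neg KO, and its log2 change in CD41neg minus that in CD41pos HSCs was -3.34. For Clu, the clusterin gene, the difference was -2.81, and for Lifr, the leukaemia inhibitory factor receptor gene, it was -4.08. H2-Oa, the partner chain gene of H2-Ob, went the other way, with 16.4, 10.9 and 12.9 CPM in CD41neg WT and 21.5, 19.7 and 19.2 CPM in CD41neg KO, and a difference of 0.755. The edgeR test of the difference between gates did not pass for any of the 4 (adjusted p = 0.515, 0.452, 0.452 and 0.811). DESeq2 gave adjusted p-values of 0.00182, 0.000397, 0.000157 and 0.227 for the same differences. The search covered 196 named genes and list members, not all 19395 genes tested, and how many such genes chance would give was not tested.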

How the results depend on the processing

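The count of genes called in CD41neg HSCs (1517, 747 higher and 770 lower) was 3096 with DESeq2 (1523 and 1573), 981 with the GC and length offset (416 and 565), 1246 and 1076 on log2(TPM + 1) and log2(TPM + 0.1), the latter with 489 lower, and 68 (8 and 60) where a log2 change above 1 was tested for. Omission of 1 library gave 341 to 3856 genes, 153 to 2074 higher and 188 to 1782 lower. Replicate numbers do not pair KO with WT libraries (correlations of deviations -0.29 and 0.107 for numbers 2 and 3), and the replicate block by number gave 458 genes (203 and 255). Between gates, KO libraries of the same number correlated at 0.438, 0.608 and 0.476, and WT 3 and WT 4 at 0.0794 and -0.495. The main fit and the test between gates treat these libraries as independent. With animal label as a random block, fitted with limma-voom in place of edgeR, 1779 genes were called, and 0 between gates. The correlation fitted there for libraries of 1 animal label was -0.0132, so the block had little to act on. The test differed as well, so this count does not show the effect of the block alone. The difference between gates (0 genes) gave 73 with DESeq2, 2 with no low-count filter, 7 on log2(TPM + 1), 26 on log2(TPM + 0.1) and 3368 without the 4 WT libraries, where 1 WT library a gate is left; leaving out 1 library gave 0 to 2. Of 130 called genes with values under each alternative, 3 changed direction: Asxl2 to -0.034 with the offset, and Mzb1 and Prdm1 to 0.22 and 0.20 without the 4 WT libraries. Over the other settings 457 of 1818 gene and setting pairs lost the call, and 447 of 1560 in the leave-one-out fits. The cause was not tested for these changes. Levels far below 1 CPM rest on few counts, and the fitted fold there depends on the prior count.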
